A study of Homo sapiens with 6 samples.

Results

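The p53 pathway and its target genes were examined in ONS-76, an established human medulloblastoma cell line, after knockdown of the histone demethylase KDM1A, also called LSD1. The set was a list of 35 gene symbols: the inhibitors that p53 induces against itself, DNA repair genes, growth arrest genes, stress metabolism genes, cell death genes and a few of other roles. A member was measured by every probe set that the platform annotation assigns to its symbol alone, and 33 of the 35 had at least 1 such probe set, among 19775 genes measured on the array. The growth arrest gene BTG2 and the mitochondrial redox gene FDXR had no probe set naming them alone and were not analysed here.

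RNA from 6 cultures was hybridized to Affymetrix U133 Plus 2.0 arrays. The 3 siKDM1A arrays came from ONS-76 cells transfected with 1 siRNA against KDM1A, and the 3 control arrays from ONS-76 cells given the transfection reagent alone. The sample labels place the harvest 48 h after knockdown, whereas the paper's text gives a later time, and the labels call the target KDM5A with LSD1 beside it while the paper names KDM1A. The paper describes 3 independent transfections for each group. Arrays a, b and c of a group are its replicates. The control cells received no siRNA, so loss of KDM1A and the delivery of an siRNA cannot be told apart in any difference given here.

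p53 is a transcription factor that is kept low in unstressed cells, mainly because MDM2 marks it for degradation, and that accumulates after DNA damage and other stress. It then binds paired decamer sequences near its target genes and raises the transcription of genes for cell cycle arrest, DNA repair, metabolic adaptation and cell death, together with genes such as MDM2 and PPM1D whose products switch it off again. KDM1A removes methyl groups from lysine 4 of histone H3 and is also known to demethylate p53 itself, which lowers the binding of p53 to a coactivator.

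KDM1A itself served as the check of the labels. It stood at 9.50, 9.57 and 9.49 on control arrays a, b and c and at 6.25, 6.34 and 6.31 on the siKDM1A arrays, in log2 units, and fell by 3.22 on the log2 scale, which is 9.33-fold (limma adjusted p = 7.1e-07). KDM5A, the gene the labels name, stood at 7.65, 7.77 and 7.68 on the control and 7.33, 7.52 and 7.45 on the siKDM1A arrays, a log2 difference of -0.27 (limma adjusted p = 0.138). All values are the authors' log2 values after RMA, a method that corrects background, gives the arrays 1 shared distribution and yields 1 value per probe set. Differences are siKDM1A minus control, tested with limma over 54613 probe sets with Benjamini-Hochberg adjustment, and a gene passed at an adjusted p below 0.05. Array medians lay between 5.09 and 5.16 and upper quartiles between 7.05 and 7.16. Of 10 medulloblastoma and neural markers VIM, TUBB3 and SOX2 stood high, at control means of 13.0, 11.8 and 10.7, whereas OTX2 was under every array's lower quartile and SYP under the median. ZIC2 lay above the upper quartile (8.39). NES, NCAM1, MAP2 and ZIC1 lay between the median and the upper quartile (5.39, 6.10, 6.22 and 7.03). Of 9 measured markers of other cell types, EPCAM, ALB and MYH1 lay below the lower quartile and PTPRC below the median, GFAP, CDH1 and PECAM1 lay between the median and the upper quartile (5.18, 5.83 and 6.59), and CDH5 and MBP lay above the upper quartile (7.58 and 7.79).

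The p53 genes did not move as a block. Genes of DNA damage recognition and lesion bypass (DDB2, XPC, POLH), the stress gene TP53INP1, the death genes PIDD1 and NINJ1 and the iron reductase gene STEAP3 were lower in siKDM1A cells, while the stress cytokine GDF15 and the kinase gene PLK3 were higher. The feedback inhibitors MDM2, MDM4, PPM1D and CCNG1 did not pass the test on their brightest probe sets. With 1 probe set per gene, the one with the highest mean over the 6 arrays, 2 of 33 members (6.06%) were higher, against 3.45% of all genes, and 7 of 33 (21.2%) were lower, against 5.46% of all genes, while 24 did not pass. The list's median log2 difference was -0.12, and that of all genes was 0.0069. Members ranged from -1.15 to 1.18, 21 of them below 0 and 12 above. The 3 siKDM1A arrays all lay below the 3 control arrays for 16 of 33 members, against 18.1% of all genes, and all above for 7 of 33, against 13.5% of all genes. In 10 members the arrays of both groups overlapped.

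**Figure D1:**
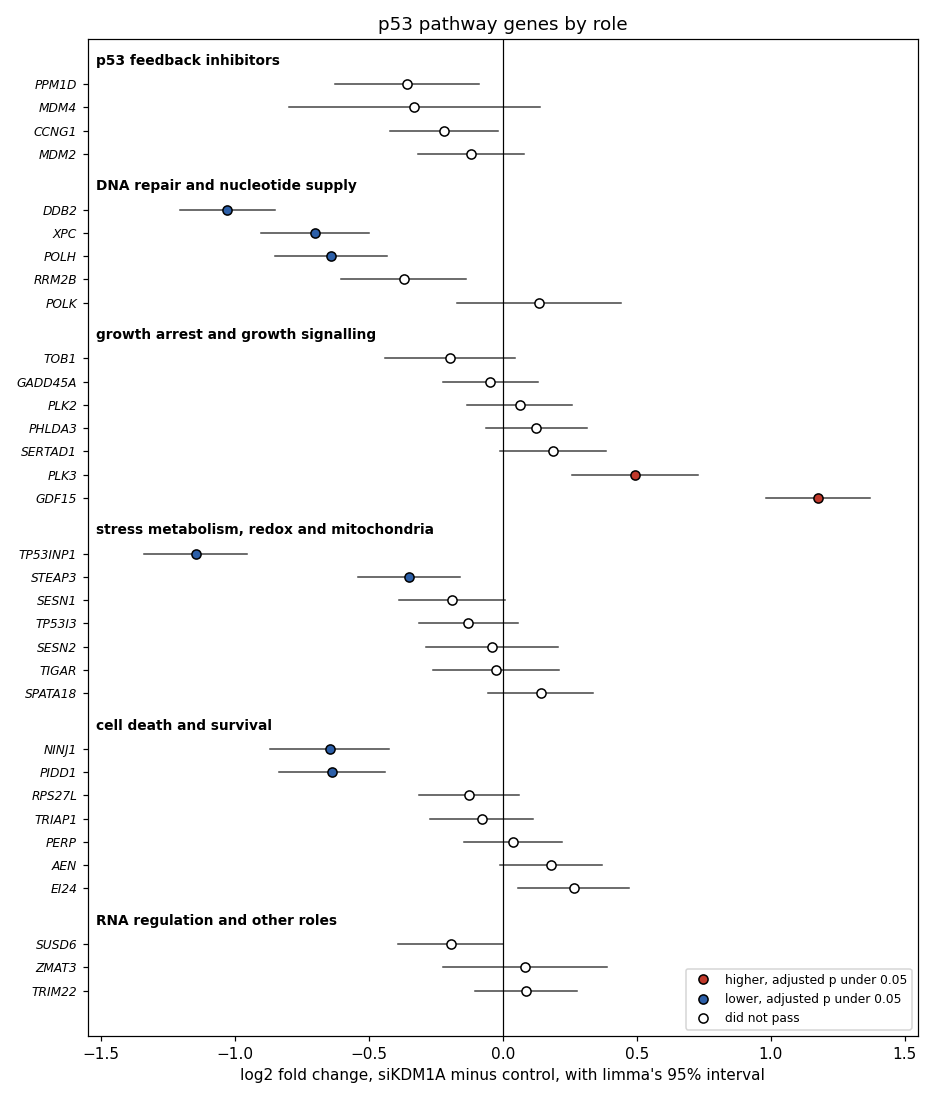
Log2 difference between siKDM1A and control cells (horizontal axis) for the 33 measured p53 pathway genes, grouped by role, with limma's 95% interval as a line and filled points for genes that passed the test. The 7 lower genes (blue) lie between -1.15 and -0.35, and the 2 higher genes (red) at 0.49 and 1.18.

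The members are mostly bright genes, since 31 of 33 had a control mean above the upper quartile of every array. Among probe sets that passed a filter on dim values, 8 of 32 members were lower, beside 1398 of 13173 genes, and 2 members were higher, beside 761 genes. Scaling moved the counts over all genes, from 683 higher and 1080 lower to 814 and 838 after cyclic loess and to 613 and 1279 after median centring, whereas the members gave 2 higher under both and 6 and 7 lower. RNA was taken from whole cultures, so fewer cells of a kind and less RNA per cell cannot be told apart.

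The best known feature shared by p53 targets is the p53 element, formed by 2 adjacent copies of a 10-base half-site with 3 purines, a core of C, A or T, A or T, and G, and 3 pyrimidines. The RefSeq promoter table of GRCh38.p14, which runs from 250 bases before to 50 bases after each start site, held 28 of the 33 measured members. With the core C and G of each half-site fixed, up to 3 other mismatches and no gap, 6 of these 28 promoters (21.4%) held a match, as did 232 of 15384 promoters of measured genes (1.51%). With up to 2 mismatches the counts were 3 members (10.7%) and 56 genes (0.364%). This motif reads as the same motif on both strands. The 6 matches are shown because they lie close to the table's start sites of genes that differed in their response to the knockdown. Each is written 5′ to 3′ on the strand of its gene, with the element in capitals between up to 5 flanking bases:
DDB2: gctccAAGCTGGTTTGAACAAGCCCtgggc
GDF15: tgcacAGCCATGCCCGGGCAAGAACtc
MDM2: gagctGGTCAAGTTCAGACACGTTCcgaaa
SESN1: cgtctGGACAAGTCTCCACAAGTCAgaaat
AEN: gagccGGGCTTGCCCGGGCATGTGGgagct
RPS27L: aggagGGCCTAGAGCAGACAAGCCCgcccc

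The coordinates in brackets here cover each element with its printed flanking bases, whereas base positions are those of the element alone. The DDB2 element (chr11:47214964-47214993, plus strand) had 1 mismatch and spanned the start site used by the table, from base -5 to base 15. The table takes the start of 1 transcript, which can lie inside the interval of the whole gene, as it does for DDB2, MDM2, AEN and SESN1. Those of MDM2 (chr12:68808918-68808947, plus strand) and AEN (chr15:88621301-88621330, plus strand) had 2 mismatches. Those of GDF15 (chr19:18386181-18386207, plus strand), SESN1 (chr6:109009013-109009042, minus strand) and RPS27L (chr15:63157522-63157551, minus strand) had 3. Of these 6 genes, DDB2 was lower, GDF15 was higher, and MDM2, SESN1, AEN and RPS27L did not pass, so genes with a match near the start site were found in each class of response. The other 22 members with a promoter in the table held no such match in this window, and many p53 elements lie in introns or farther away, outside it.

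DNA repair and nucleotide supply was the role group with the lowest median log2 difference, -0.64. In it 3 of 5 members fell (60%, against 5.46% of all genes) and none rose (against 3.45% of all genes). DDB2 encodes the sensor that recognises ultraviolet lesions in chromatin and recruits nucleotide excision repair. The gene lies at chr11:47214454-47239217. Its log2 values were 9.60, 9.60 and 9.65 on the control and 8.59, 8.60 and 8.59 on the siKDM1A arrays. Both groups were tight and far apart, and DDB2 fell by 1.03 on the log2 scale (SE 0.079), or 2.04-fold (limma adjusted p = 0.0002).

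XPC, whose protein receives lesions from the DDB2 complex and starts global genome excision repair, lies at chr3:14145147-14178601. It stood at 8.75, 8.65 and 8.78 on the control and at 8.10, 8.05 and 7.92 on the siKDM1A arrays. The groups did not overlap, and XPC fell by 0.70 on the log2 scale (SE 0.089), or 1.63-fold (limma adjusted p = 0.0025). POLH (chr6:43576185-43620523) encodes DNA polymerase eta, which copies past ultraviolet lesions. Its brightest probe set gave 7.84, 7.71 and 7.96 on the control and 7.17, 7.26 and 7.16 on the siKDM1A arrays. Every siKDM1A array lay below every control array, and POLH fell by 0.64 on the log2 scale (SE 0.093), or 1.56-fold (limma adjusted p = 0.0044). Of its 5 dimmer probe sets 2 were also lower, with log2 differences of -0.59 and -0.62 (limma adjusted p = 0.0136 and 0.0262), and 3 did not pass, at -0.75, -0.34 and -0.015.

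RRM2B, the p53-induced subunit of ribonucleotide reductase, which supplies deoxynucleotides for repair, stood at 9.40, 9.63 and 9.44 on the control and 9.08, 9.27 and 9.01 on the siKDM1A arrays. The groups did not overlap, but its log2 difference of -0.37 (95% interval -0.60 to -0.14) did not pass (limma adjusted p = 0.0755). It passed under 3 of 14 alternative settings. POLK, another lesion bypass polymerase, had a log2 difference of 0.14 (95% interval -0.17 to 0.44) with overlapping groups.

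**Figure D2:**
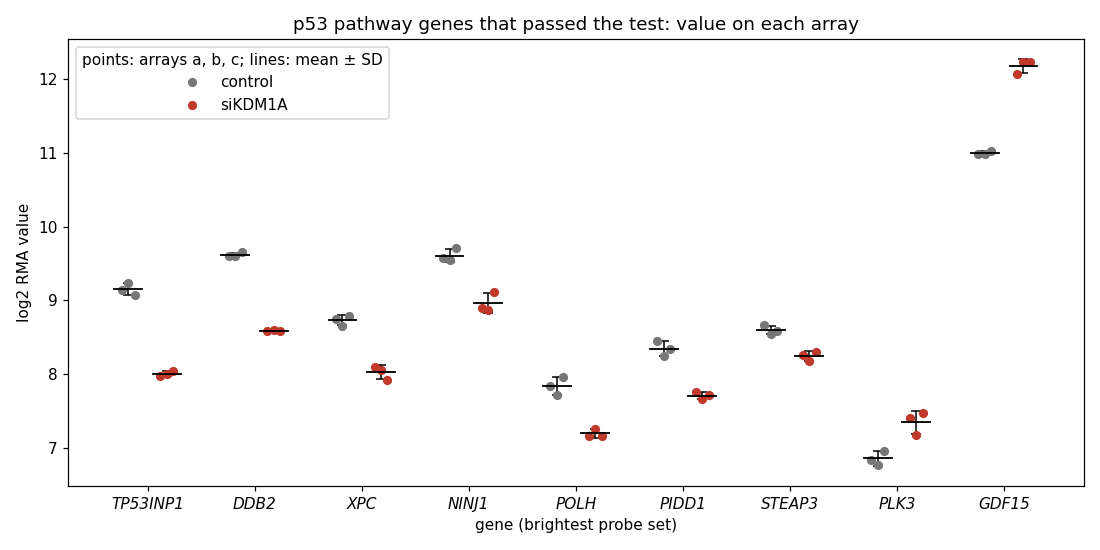
Log2 RMA value on each array (vertical axis) for the 9 p53 pathway genes that passed the test, with control arrays in grey, siKDM1A arrays in red and lines for the mean and SD of 3 arrays. In none of the 9 do the groups overlap, and the gap is widest for GDF15, TP53INP1 and DDB2. The 9 were selected by the test on these same arrays, so their separation is not independent evidence of a difference.

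Stress metabolism, redox and mitochondrial genes held the largest decrease among the members. TP53INP1 encodes a stress-induced protein that takes part in p53 phosphorylation and autophagy. It stood at 9.14, 9.24 and 9.08 on the control and at 7.97, 8.0 and 8.04 on the siKDM1A arrays. All siKDM1A values lay more than 1 log2 unit below all control values, and TP53INP1 fell by 1.15 on the log2 scale (SE 0.085), or 2.22-fold (limma adjusted p = 0.0002). Its other 2 probe sets were much dimmer and did not pass, with log2 differences of -0.076 and 0.21 (limma adjusted p = 0.80 and 0.41). STEAP3 (chr2:119223834-119265652) encodes an endosomal iron reductase. It stood at 8.66, 8.54 and 8.59 on the control and at 8.26, 8.18 and 8.30 on the siKDM1A arrays. The groups were separate, though close, and STEAP3 fell by 0.35 on the log2 scale (SE 0.085), or 1.28-fold (limma adjusted p = 0.0420). Its dimmer probe set was lower too, with a log2 difference of -0.54 (limma adjusted p = 0.0220). The call of STEAP3 was lost without any 1 of the 6 arrays, at limma adjusted p between 0.0588 and 0.151.

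The other 5 measured members of this group did not pass. They were the sestrins SESN1 and SESN2, which restrain mTORC1 under stress, the sugar phosphatase gene TIGAR, the quinone reductase gene TP53I3 and the mitochondrial quality control gene SPATA18. Their log2 differences lay between -0.19 (SESN1) and 0.14 (SPATA18). The narrowest interval of the 5 was that of TP53I3, -0.31 to 0.05, and the widest that of SESN2, -0.29 to 0.21. The lowest limit was that of SESN1, at -0.39, and all 5 intervals lay within 1.5-fold of no change. SPATA18 was the only member whose control mean lay below every array's median, at 4.49, 4.30 and 4.32.

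Among the cell death and survival genes 2 of 7 fell (28.6%, against 5.46% of all genes) and none rose (against 3.45% of all genes). PIDD1 (chr11:799184-809501) encodes the death domain scaffold that activates caspase 2. It stood at 8.45, 8.25 and 8.35 on the control and at 7.75, 7.66 and 7.71 on the siKDM1A arrays. The groups did not overlap, and PIDD1 fell by 0.64 on the log2 scale (SE 0.088), or 1.56-fold (limma adjusted p = 0.0036). Its second probe set showed the same direction, with a log2 difference of -0.80 (limma adjusted p = 0.0377). NINJ1 (chr9:93121496-93134251) encodes a cell surface protein that ruptures the plasma membrane of dying cells. It stood at 9.57, 9.55 and 9.70 on the control and at 8.90, 8.87 and 9.11 on the siKDM1A arrays. Array c was the highest of its group in both, the groups stayed apart, and NINJ1 fell by 0.65 on the log2 scale (SE 0.099), or 1.57-fold (limma adjusted p = 0.0057).

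The death-linked nuclease gene AEN, the membrane protein gene PERP, EI24, the survival gene TRIAP1 and the ribosomal protein gene RPS27L did not pass. Their log2 differences were 0.18, 0.036, 0.26, -0.079 and -0.13. PERP was the brightest member, at 12.28 to 12.30 on the control and 12.28 to 12.40 on the siKDM1A arrays, and its interval of -0.15 to 0.22 was the narrowest of these 5. EI24, an endoplasmic reticulum protein gene, had the widest of the 5, from 0.06 to 0.47, and both of its probe sets were higher on every siKDM1A array without passing (limma adjusted p = 0.152 and 0.12).

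Growth arrest and growth signalling was the only role group with members that rose, 2 of 7 (28.6%, against 3.45% of all genes). None of its members fell, against 5.46% of all genes. GDF15 (chr19:18386158-18389176) encodes a stress-induced cytokine of the TGF-beta family. Its brightest probe set gave 10.99, 10.99 and 11.02 on the control and 12.07, 12.23 and 12.23 on the siKDM1A arrays. All siKDM1A arrays lay more than 1 log2 unit above all control arrays, and GDF15 rose by 1.18 on the log2 scale (SE 0.086), or 2.26-fold (limma adjusted p = 0.00016). Its other 2 probe sets, whose control means lay below the array medians, had log2 differences of 0.40 and 0.47 and did not pass (limma adjusted p = 0.102 and 0.0511). The brightest probe set has the suffix _x_at, which marks probes that can hybridize to other transcripts, and without such probe sets GDF15 did not pass.

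PLK3 (chr1:44800377-44805990) encodes a polo-like kinase that responds to genotoxic stress. It stood at 6.84, 6.77 and 6.96 on the control and at 7.40, 7.18 and 7.47 on the siKDM1A arrays. Its groups did not overlap, and PLK3 rose by 0.49 on the log2 scale (SE 0.10), or 1.41-fold (limma adjusted p = 0.0257). Its 2 dimmer probe sets gave log2 differences of 0.074 and 0.096 and did not pass. The call was lost in 5 of 6 fits that left out 1 array, all but the one without siKDM1A array b, and the limma adjusted p ran from 0.0199 to 0.103.

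The remaining 5 members of the group did not pass. GADD45A, whose product blocks growth after DNA damage and binds PCNA, had a log2 difference of -0.047 with the narrowest interval of the 5 (-0.22 to 0.13). TOB1, an antiproliferative gene, had the widest (-0.44 to 0.04). Its siKDM1A values were 11.43, 11.47 and 11.12, so array c stood apart from the other two. PLK2, a further polo-like kinase gene, PHLDA3, which encodes an inhibitor of AKT, and SERTAD1, which encodes a CDK4-binding protein, had log2 differences of 0.062, 0.13 and 0.19.

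The feedback inhibitors of p53 had log2 differences below 0 throughout, as had 9558 of all 19775 genes, with a group median of -0.28. On the brightest probe set 0 of 4 passed in limma, and 0 in the one-way ANOVA after the same adjustment. An unadjusted limma p below 0.05 was found for 2 of the 4, and for 4778 of all genes. MDM2, the main ubiquitin ligase of p53, stood at 9.22, 9.29 and 9.24 on the control and at 9.09, 9.25 and 9.06 on the siKDM1A arrays. The groups overlapped, and its log2 difference of -0.12 had a 95% interval of -0.32 to 0.08 (limma adjusted p = 0.53). None of its 10 probe sets passed, and they ranged from -0.13 to 0.27. MDM4, the relative of MDM2 that masks the activation domain of p53, stood at 8.21, 7.99 and 8.08 on the control and at 8.12, 7.97 and 7.20 on the siKDM1A arrays. The siKDM1A arrays a and b lay close to the control arrays and array c well below them, and the interval of -0.80 to 0.14 was the widest of all members. None of the 6 MDM4 probe sets passed, and they ranged from -0.40 to 0.12. On the second brightest, the siKDM1A arrays (7.60, 7.31 and 7.35) all lay below the control arrays (8.12, 7.67 and 7.66). Its log2 difference was -0.40 (limma adjusted p = 0.153).

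PPM1D, also called WIP1, encodes the phosphatase that reverses damage kinase signals on p53. Its brightest probe set gave 8.34, 8.40 and 8.41 on the control and 8.03, 8.26 and 7.79 on the siKDM1A arrays, a log2 difference of -0.36 (limma adjusted p = 0.135), which passed without siKDM1A array b (0.0493). Its dimmer probe set gave 5.22, 5.51 and 5.35 on the control and 5.05, 4.93 and 4.74 on the siKDM1A arrays. In both probe sets the siKDM1A arrays lay below all control arrays, and the dimmer one passed, with a log2 difference of -0.45 (SE 0.11, limma adjusted p = 0.0491). CCNG1, or cyclin G1, which guides a phosphatase to MDM2, had a log2 difference of -0.22 (limma adjusted p = 0.225).

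The last 3 members did not pass. They were ZMAT3, which encodes an RNA-binding zinc finger protein, SUSD6, which encodes a transmembrane protein, and TRIM22, which encodes an antiviral ubiquitin ligase. Their log2 differences were 0.082, -0.20 and 0.087. ZMAT3 had the widest interval of the 3 (-0.22 to 0.39), and TRIM22 the narrowest (-0.10 to 0.28). Over all 24 members that did not pass, the 95% interval lay within 1.5-fold of no change for 21, the exceptions being MDM4, PPM1D and RRM2B.

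The 33 members had 78 probe sets in all, of which 2 were higher, against 2.63% of all probe sets that name 1 gene, and 12 lower, against 4.26%. Among the 18 members with more than 1 probe set, PIDD1 and STEAP3 were lower on every probe set and POLH on 3 of 6, whereas GDF15, PLK3 and TP53INP1 passed on 1 of 3 probe sets each. Those 3 calls therefore rest on a single probe set. The other 2 probe sets of GDF15 were higher on every siKDM1A array without passing, whereas those of PLK3 and TP53INP1 had overlapping groups. DDB2, XPC and NINJ1 had 1 probe set each.

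**Figure D3:**
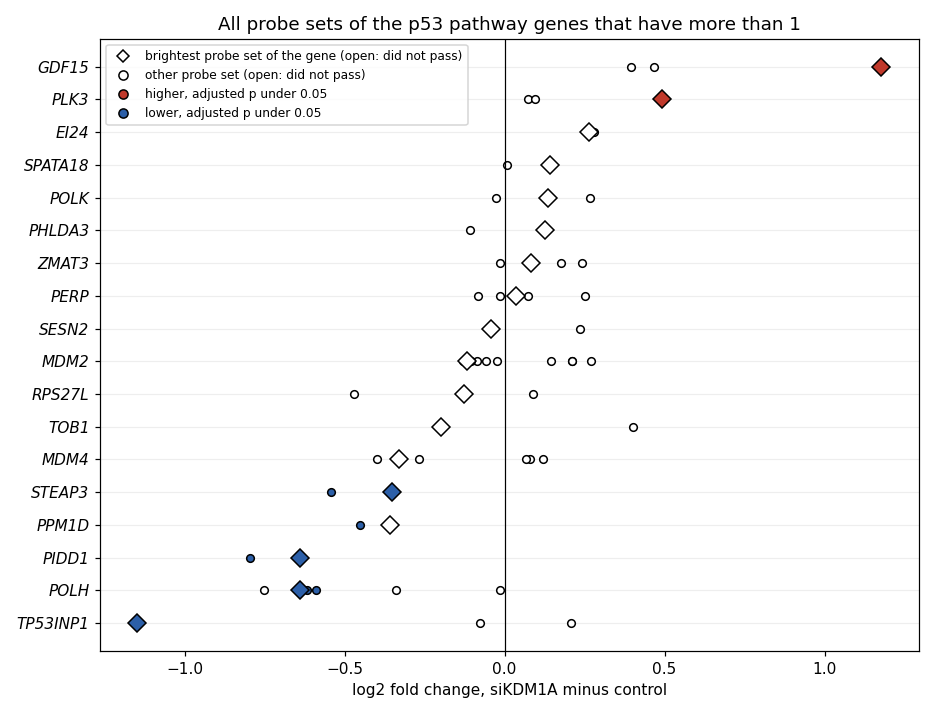
Log2 difference between siKDM1A and control cells (horizontal axis) for every probe set of the 18 p53 pathway genes with more than 1, with diamonds for the brightest probe set and filled symbols for those that passed. The diamonds of GDF15 at 1.18 and TP53INP1 at -1.15 stand apart from the other probe sets of the same gene, whereas both probe sets of PIDD1 lie at -0.64 and -0.80.

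The siKDM1A arrays differed among themselves. Measured from each gene's control mean, the median log2 deviation over all 33 members was -0.10, -0.068 and -0.14 on siKDM1A arrays a, b and c and between -0.015 and 0.0004 on the control arrays. Array c stood below the other siKDM1A arrays for several members, among them MDM4 and TOB1, as given above. Further examples were ZMAT3 (9.61, 9.70 and 9.16) and POLK (8.59, 8.64 and 8.14). Array c also stood lowest on a dimmer probe set of RPS27L, at 8.24, 8.04 and 6.35. Without siKDM1A array c the list's median log2 difference was -0.083.

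Other genes of the pathway were read from 3 further lists. Of 23 measured genes of the p53 family, its activating kinases and its modifiers, 4 were lower (17.4%, against 5.46% of all genes) and 1 was higher (4.35%, against 3.45%). The list's median log2 difference was -0.15. TP73, a family member that can bind the same elements as p53, stood at 7.70, 7.25 and 7.37 on the control and at 5.90, 6.05 and 6.35 on the siKDM1A arrays. Its groups were far apart, and TP73 fell by 1.34 in log2 units (limma adjusted p = 0.0011). HIPK2, a kinase that phosphorylates p53 in the response to lethal damage, and KAT5, an acetyltransferase of p53, fell by 0.62 and 0.44 in log2 units (limma adjusted p = 0.0123 and 0.0316). RCHY1, a ubiquitin ligase for p53, rose by 0.44 (limma adjusted p = 0.0306). The call of RCHY1 was lost in 5 of 6 fits without 1 array, all but the one without control array b, with limma adjusted p from 0.0458 to 0.127. That of KAT5 was lost in 4 of 6, all but those without siKDM1A array b or c (0.0479 to 0.127). Of the damage kinases, CHEK1 fell by 0.35 in log2 units (limma adjusted p = 0.0489), and a dimmer probe set of it by 0.53 (limma adjusted p = 0.0141), while ATM, ATR and CHEK2 did not pass, with log2 differences of -0.14, -0.15 and -0.09. The call of CHEK1 held in 1 of 6 fits without 1 array, that without siKDM1A array b. Counting all probe sets, TP73 and KAT5 passed on 2 of 3 probe sets each, HIPK2 on 2 of 10 and RCHY1 on 1 of 4. All 5 calls of this list were lost in a one-way ANOVA, the study's kind of test, with the Benjamini-Hochberg adjustment added here (ANOVA adjusted p from 0.0791 to 0.139). Their unadjusted ANOVA p lay between 0.0020 and 0.0084.

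Of 23 further measured p53 targets 4 were higher (17.4%, against 3.45% of all genes) and 2 lower (8.7%, against 5.46%). The list's median log2 difference was 0.0042. CDKN1A, which encodes the cell cycle inhibitor p21, stood at 10.41, 10.34 and 10.33 on the control and at 10.89, 10.74 and 11.02 on the siKDM1A arrays. The groups did not overlap, and CDKN1A rose by 0.52 on the log2 scale (SE 0.096), or 1.44-fold (limma adjusted p = 0.0135). The call was lost without control array b or c (limma adjusted p = 0.0581 and 0.0721) and in the one-way ANOVA (ANOVA adjusted p = 0.0968). The cytokine gene LIF and the EGF receptor ligand gene TGFA rose by 1.15 and 0.84 in log2 units (limma adjusted p = 0.0002 and 0.0008), and APAF1, the scaffold of the apoptosome, fell by 0.69 (limma adjusted p = 0.0065). The APAF1 call rests on 1 of its 3 probe sets, since the dimmer ones had log2 differences of 0.12 and 0.055 and did not pass, and it was lost in the ANOVA, whereas LIF and TGFA passed there (ANOVA adjusted p = 0.028 and 0.029). The textbook death targets BAX, PMAIP1 and FAS did not pass, with log2 differences of -0.30, 0.65 and 0.31 (limma adjusted p = 0.086, 0.056 and 0.18). A second, slightly dimmer probe set of PMAIP1 passed, with a log2 difference of 0.50 (limma adjusted p = 0.039).

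The 23 cell cycle genes that p53 lowers through p21 and the DREAM repressor complex all had log2 differences below 0, as had 9558 of all 19775 genes. Of the 23, 15 passed (65.2%, against 5.46% of all genes lower) and none was higher. The list's median log2 difference was -0.55. The mitotic kinase gene NEK2, the helicase gene MCM5, the phosphatase gene CDC25C and the topoisomerase gene TOP2A fell by 0.80, 0.93, 0.88 and 0.71 in log2 units (limma adjusted p from 0.0007 to 0.0019). In the ANOVA 10 of the 23 passed, these 4 among them. These genes are expressed mainly in dividing cells, and the fraction of dividing cells was not measured on the arrays. In a separate assay of BrdU incorporation, the paper reports fewer proliferating ONS-76 cells after KDM1A knockdown. The part of this in the lower values was not tested.

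GDF15 and SESN2 can also be raised by the integrated stress response, which acts through ATF4 rather than p53. Of 15 genes of that response 5 were higher (33.3%, against 3.45% of all genes) and 1 lower (6.67%, against 5.46%). The list's median log2 difference was 0.11. ATF3, DDIT3 and PPP1R15A rose by 0.85, 0.37 and 0.51 on the log2 scale, and PHGDH, a serine synthesis enzyme gene, fell by 0.41 (limma adjusted p from 0.0129 to 0.0393). The call of ATF3 was lost without control array c (limma adjusted p = 0.0678). ATF3 passed on 1 of its 3 probe sets, and the other 2 had log2 differences of 0.056 and 0.11 (limma adjusted p = 0.83 and 0.63). The probe set used had the highest mean over the 6 arrays, but in control cells another stood higher, at 5.42 against 5.36. The calls of DDIT3 and PHGDH were lost without any array but siKDM1A c, and that of PPP1R15A without any array but siKDM1A a, at limma adjusted p up to 0.136. In the ANOVA 1 gene of this list passed, TRIB3, which was higher (ANOVA adjusted p = 0.0367). ATF4 itself had a log2 difference of 0.11 and did not pass (limma adjusted p = 0.52). The part of this response in the rise of GDF15 was not tested.

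**Figure D4:**
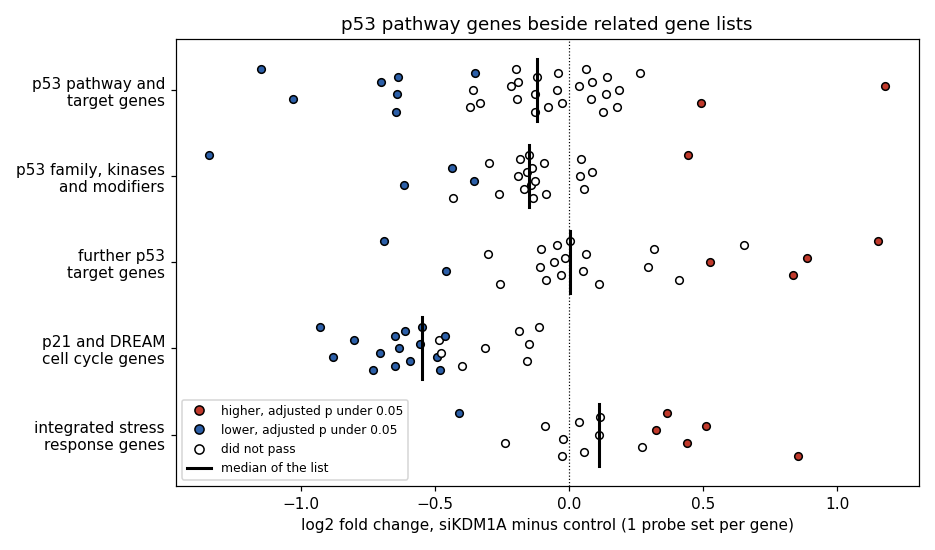
Log2 difference between siKDM1A and control cells (horizontal axis), 1 probe set per gene, for the 33 p53 pathway genes and 4 related lists, with filled points for genes that passed and a bar at each list's median. The medians are -0.12 for the p53 genes, -0.15 for the p53 family and modifiers, 0.0042 for further targets, -0.55 for the cell cycle genes and 0.11 for the stress response genes.

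Of the 10 medulloblastoma and neural markers 1 was higher (10%, against 3.45% of all genes) and 3 were lower (30%, against 5.46%). MAP2 rose by 1.12 on the log2 scale, and ZIC1, ZIC2 and SOX2 fell by 0.39, 0.40 and 0.43 (limma adjusted p from 0.0003 to 0.0476). Their mean log2 level was 7.59 to 7.68 on the control and 7.55 to 7.67 on the siKDM1A arrays. The mean of the 9 markers of other cell types was 4.993 to 5.028 on the control and 5.035 to 5.210 on the siKDM1A arrays. Every siKDM1A array thus lay above every control array. Of the 9 markers 8 had a log2 difference above 0, as had 10217 of all 19775 genes. The list's median log2 difference was 0.12, the size of the p53 genes' median with the opposite sign. The part of such a shift in the results was not tested. Only the endothelial gene PECAM1 passed among these 9 markers (11.1%, against 3.45% of all genes higher). Its log2 difference was 0.35 (limma adjusted p = 0.0349), while its other 4 probe sets had log2 differences of -0.17 to -0.041 and did not pass. When 1 array was left out MAP2 passed in all 6 fits. ZIC2 and PECAM1 passed in 0 of 6 fits, while ZIC1 passed only without siKDM1A array c and SOX2 only without siKDM1A array a (limma adjusted p up to 0.138, 0.13, 0.103 and 0.193).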

How the data were processed

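Scans of 6 arrays were normalized by the authors with RMA in the Partek Genomics Suite (version not given in the sources used here). The log2 values were taken as deposited. RMA gives the arrays a common distribution, so a shift shared by most genes would be largely removed. Arrays give no read depth; 3 arrays per group limit the precision. Of 54675 probe sets, 62 Affymetrix controls were left out and 54613 tested with limma 3.58.1 in R 4.3.3 (lmFit and eBayes, no trend, two-sided). In the platform annotation 41091 named 1 gene, 1801 several and 11721 none.

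The p53 genes and the other lists were chosen with earlier results of these data known. All members are accounted for; those passing on any probe set are given array by array, the others by role group with the widest and narrowest interval, and of each other list at most the 4 genes with the smallest p, besides KDM1A, KDM5A and CDKN1A. The gene encoding p53 was not analysed here. ATM, ATR, CHEK1, CHEK2, ATF4, TRIB3, BAX, PMAIP1, FAS and the markers named for their level were added to these after their values were seen. Steps were tested on simulated data, and no pair of arrays was identical. Promoters came from a RefSeq table (GRCh38.p14) searched in Python 3.11.15. A one-way ANOVA, the study's kind of test, was tried with a Benjamini-Hochberg adjustment added here. The other alternatives tried were each array left out in turn, a block for the replicate letters, cyclic loess or median centring of the arrays, removal of dim probe sets, a robust prior with an intensity trend, and other rules for choosing a gene's probe set.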

Additional observations from a re-analysis of the deposited data

How the results depend on the processing

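The median log2 difference of the p53 genes was -0.12, and was -0.15 after median centring, -0.062 after cyclic loess, -0.047 with the mean of all probe sets per gene and between -0.12 and -0.083 when 1 array was left out. The count of higher members, 2, became 1 in the adjusted one-way ANOVA, with the mean of all probe sets and without _x_at probe sets, and was 1 to 2 when 1 array was left out. The count of lower members, 7, became 4 in the ANOVA and 6 to 7 when 1 array was left out, and lay between 6 and 9 under the other alternatives. The endothelial marker PECAM1 changed sign with the mean of all probe sets, to -0.036 (limma adjusted p = 0.837). XPC, DDB2, TP53INP1 and PIDD1 passed under all 14 alternatives, POLH and NINJ1 under all but the ANOVA (ANOVA adjusted p = 0.0623 and 0.082), and GDF15 under all but the one without _x_at probe sets. PLK3 was lost under 7 of 14 and STEAP3 under 9 of 14. RRM2B was gained under 3 and PPM1D under 2. In the ANOVA none of the 5 calls among p53 family genes and modifiers held, TP73 and CDKN1A did not pass (ANOVA adjusted p = 0.0791 and 0.0968), lower cell cycle genes went from 15 to 10, and stress response genes from 5 higher and 1 lower to 1 and 0. Deviations from the group means correlated at 0.11, 0.23 and -0.13 between arrays of the same letter, and at -0.32 to 0.18 between different letters. With 3 arrays per group these values cannot decide whether the letters pair the arrays. With the letters as a replicate block 2 members were higher and 6 lower, with 584 and 851 of all genes, and the median stayed at -0.12.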
